A study of Mus musculus with 2 samples.

Results

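The genes described here are 9 genes of mineralizing osteoblasts, the cells that lay down bone and load it with mineral: Sp7, Alpl, Phex, Spp1, Ibsp, Dmp1, Omd, Ifitm5 and Pth1r. They were taken by symbol from the deposited gene table, where each has 1 row, and make up 9 of 54532 genes. They were read in 2 RNA-seq libraries of mouse bone marrow niche cells, 1 labelled BMT and 1 labelled aGVHD_V, which asks how the niche differs when a transplant is accompanied by acute graft-versus-host disease (aGVHD), an attack of donor T cells on recipient tissue. Recipients in both groups were female CB6F1 hybrids that were irradiated with 2 doses of 4.0 Gy and 4 hours later were transplanted with 5000000 B6.SJL marrow cells. The aGVHD_V group was also infused with 60000000 C57BL/6 spleen cells. What the V stands for, the ages of the mice, the time of sampling and the number of mice behind a library are not stated by the sources. The sort depleted cells with CD45, lineage antigens or CD71 and left out dead cells by Calcein AM and DAPI. Stromal cells were thus sought by depletion and not by a bone marker. Blood cell transcripts remained in both libraries, as the markers given below show. The series title speaks of single cells, but the table gives a single value of each gene in each library, with no cells to be told apart, and the values were read as bulk levels. With 1 library a group, no difference below has a replicate check, nothing was tested and p-values are not printed.

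Osteoblasts arise from mesenchymal progenitors of the marrow under the transcription factors RUNX2 and SP7. They secrete type I collagen and acidic phosphoproteins that bind calcium, and their alkaline phosphatase removes pyrophosphate, an inhibitor of crystal growth, and releases phosphate. Osteoblasts that become buried in bone turn into osteocytes, which sense load and regulate phosphate in the blood.

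Values are FPKM, reads per kilobase of gene and of library size, so levels can be set side by side between genes. Read numbers were recovered from them, and sum to 10869191 over genes under BMT and 11299834 under aGVHD_V. Reads were found for 15477 genes under BMT and 12310 under aGVHD_V. Detected genes most often had 14 reads under BMT and 44 under aGVHD_V. Intervals are 95% counting intervals widened by treating that modal number of reads as 1 count. They cover counting error only, since reads without molecular identifiers are not independent molecules. A gene without reads is compatible with up to 3 such counts, its floor, which is 42 reads under BMT and 132 under aGVHD_V. For a gene without reads under aGVHD_V, a fold against the floor is its BMT FPKM over that floor. Such a fold leaves out the counting error of the BMT value. A gene is called measured when either library has it at FPKM 1 or above, and a gene is called at least 2-fold lower or higher when log2(FPKM + 1) differs by 1 or more. Other measured genes are within 2-fold on that scale, which understates differences of low genes, so that the ratio of their FPKM can be above 2.

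Of the 8 genes with reads, Spp1, Alpl and Pth1r had reads in both libraries and were lower under aGVHD_V. Sp7, Phex, Ibsp, Dmp1 and Ifitm5 had reads under BMT alone, which fixed their direction. For Sp7, Dmp1 and Ifitm5 the BMT level was under the aGVHD_V floor. Omd had no reads in either library. The BMT FPKM was 1 or more for 7 of the 8 genes with reads, and all 7 were called at least 2-fold lower. Spp1 and Pth1r were at 1 or more under aGVHD_V as well. The other 5 were measured through BMT alone and so had to be lower, which makes the count a description only. Among all 12942 measured genes 19.4% were called lower and 8.65% higher. The median difference of the 7 genes on the log2(FPKM + 1) scale was -1.68 (range -3.52 to -1.10), against -0.07 over all measured genes. Since 5 of these 7 differences had to be below 0, this median too is a description only. Lower calls were more frequent among weakly expressed genes, which 5 of the 7 are: the share was 27.9% where the higher FPKM lay from 1 to 10 and 8.2% from 10 to 100. Reads of the 9 genes together numbered 2232 under BMT, 0.0205% of its reads, and 234 under aGVHD_V, 0.00207%. Fewer cells of a type and less RNA per cell cannot be told apart in such libraries.

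**Figure D1:**
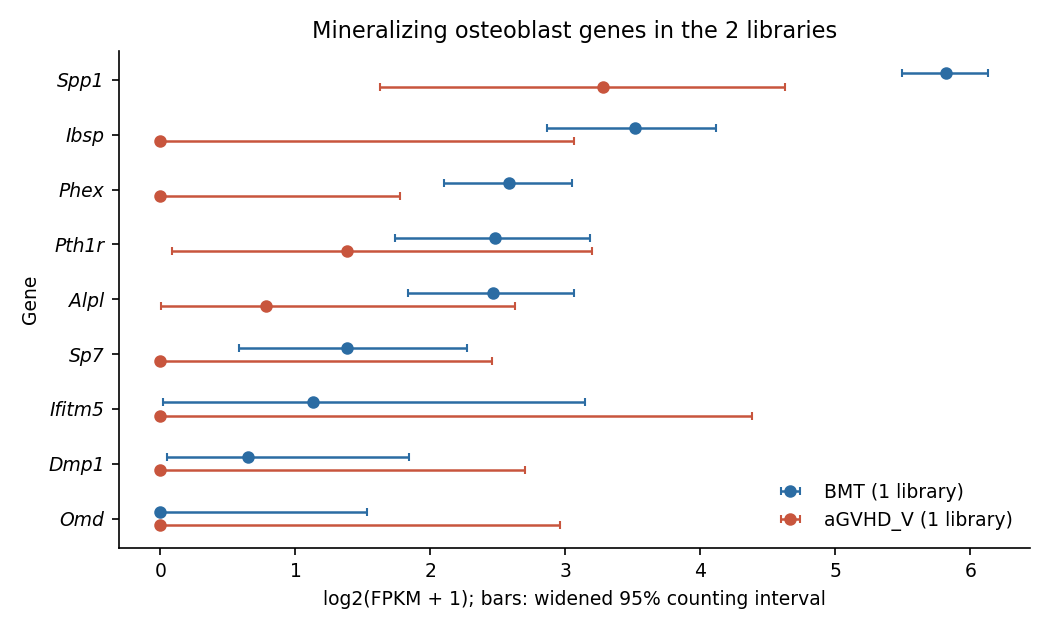
Level of each gene as log2(FPKM + 1) under BMT and under aGVHD_V, 1 library each, with widened 95% counting intervals as bars. The intervals of Spp1 and of Phex do not overlap between the libraries, whereas those of the other 7 genes do. How often intervals do not overlap over all genes was not computed, so this is a description only.

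In the BMT library the levels ran in the order Spp1, Ibsp, Phex, Pth1r, Alpl, Sp7, Ifitm5, Dmp1 and Omd. Spp1 was 5.32-fold above Ibsp (interval 3.182 to 9.33) and Ibsp 2.09-fold above Phex (1.10 to 3.91), so these steps exceeded the counting error. No later step did: Phex and Pth1r differed 1.09-fold (0.532 to 2.40), Pth1r and Alpl 1.01-fold (0.430 to 2.30) and Alpl and Sp7 2.82-fold (0.965 to 10.3). Under aGVHD_V only Spp1, Pth1r and Alpl had reads, in that order of FPKM. Pth1r (50 reads) and Alpl (31 reads) were under the floor of 132 reads, and Spp1 (153 reads) was little above it. This order was not checked against the counting error. The remaining 6 genes had none there.

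Sp7, also called osterix, is the transcription factor that commits progenitors to the osteoblast fate. The gene (ENSMUSG00000060284) lies on chromosome 15 at 102356606 to 102367182 on the minus strand of GRCm38. It was at FPKM 1.60 on 66 reads under BMT (interval 0.498 to 3.83), and no reads were found under aGVHD_V. The floor of the aGVHD_V library corresponds to an FPKM of 3.64 for this gene, above the BMT level. A level like that of BMT could thus have gone without reads there. Absence of reads at such a level was common: 20.5% of the 7204 genes with a BMT FPKM from 1 to 10 had none under aGVHD_V. The related factors that are expressed in many cell types were within 2-fold under all scalings run. Sp3 was at FPKM 36.1 under BMT and 44.1 under aGVHD_V. Sp1, whose gene is next to Sp7, had 14.3 and 16.2, Sp2 had 14.0 and 10.3, and Sp4 had 6.36 and 9.40. The tissue-restricted relatives Sp5, Sp6, Sp8 and Sp9 had no reads in either library.

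Alpl encodes tissue-nonspecific alkaline phosphatase, the enzyme that hydrolyses pyrophosphate at the site of mineral growth, and Phex encodes a membrane peptidase whose loss causes phosphate wasting. Alpl (ENSMUSG00000028766, chromosome 4, 137741733 to 137796384, minus strand) was at FPKM 4.52 on 221 reads under BMT and 0.72 on 31 reads under aGVHD_V. That is 6.27-fold lower, and the widened interval, which begins at 0.761, included no difference. The intestinal and germ cell phosphatases Alpi, Akp3 and Alppl2 had no reads in either library. Phex (ENSMUSG00000057457, chromosome X, 157162075 to 157415312, minus strand) was at FPKM 4.99 on 381 reads under BMT and no reads under aGVHD_V. Phex was 2.54-fold lower against the floor, the largest such fold among the 9 genes. Of all genes with a BMT FPKM from 1 to 10, 20.5% had no reads under aGVHD_V. Among the related peptidases, neprilysin (Mme, also known on B-cell precursors and stromal cells) was lower, with an FPKM of 6.40 against 0.16 (fold interval from 3.78). Ece1, the endothelin-converting enzyme, was also lower at 9.09 against 1.13 (interval from 1.74). Kel, the Kell blood group protein of red cells, had 88.1 against 143.2, and Mmel1 1.07 against 2.62. Thus 2 of the 4 measured relatives were called lower, and the remaining 2 were called in neither direction on the log2(FPKM + 1) scale.

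Spp1, Ibsp and Dmp1 belong to the SIBLING proteins, acidic secreted phosphoproteins of bone and teeth whose genes lie together on chromosome 5. Spp1 encodes osteopontin, which binds mineral and the integrins and CD44 of cells, Ibsp encodes bone sialoprotein, which nucleates mineral, and Dmp1 encodes dentin matrix protein 1 of osteocytes. Spp1 (ENSMUSG00000029304, 104435118 to 104441050, plus strand) had the highest level of the 9 genes in both libraries, with an FPKM of 55.5 on 1110 reads under BMT and 8.71 on 153 reads under aGVHD_V. It was 6.38-fold lower (widened interval 2.25 to 27.2; 5.38 to 7.60 if every read is taken as a count). Its BMT level was above that of 94.2% of the genes with reads in that library, and its aGVHD_V level above that of 58.5%.

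Ibsp (ENSMUSG00000029306, 104299171 to 104311469, plus strand) was at FPKM 10.4 on 262 reads under BMT and no reads under aGVHD_V. Against the floor it was 1.75-fold lower, but the intervals of the libraries overlapped (6.26 to 16.4 under BMT and 0 to 7.36 under aGVHD_V). Of the 4417 genes with a BMT FPKM from 10 to 100, 1.97% lacked reads under aGVHD_V. Ibsp lies at the lower end of that range, and 20.5% of genes with a BMT FPKM from 1 to 10 lacked them. Dmp1 (ENSMUSG00000029307, 104202613 to 104214102, plus strand) was at FPKM 0.57 on 19 reads under BMT and none in the other, both under the floor. Mepe and Dspp, the remaining genes of the family in this cluster, had no reads in either library. The neighbour on one flank, Sparcl1, a matrix protein related to Sparc that is also made outside bone, was at FPKM 27.8 under BMT and 54.5 under aGVHD_V. On the other flank Pkd2, the polycystin 2 channel, had 2.81 and no reads (2.30-fold lower against the floor).

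**Figure D2:**
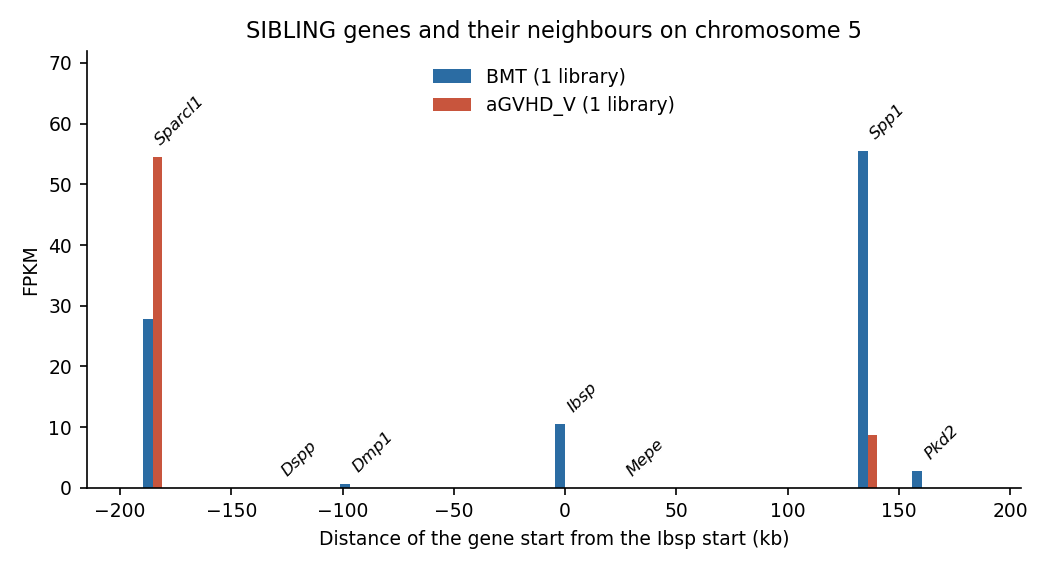
FPKM of the SIBLING genes and the protein-coding genes that start within 200 kb of Ibsp, plotted by the distance of each gene start from the Ibsp start in kb, 1 BMT and 1 aGVHD_V bar per gene. Spp1, Ibsp, Dmp1 and Pkd2 are lower under aGVHD_V and Sparcl1 is higher, while Dspp and Mepe are at 0 in both.

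RUNX2 is a known regulator of this family, so the 250 bases before each start site in the RefSeq promoter table (GRCm38.p6) were searched for the RUNX core TGTGGT on both strands (ACCACA on the other). The table holds 13 start sites for 8 of the 9 genes. The core was found before 2 of the 13, 1 of Spp1 and 1 of Dmp1, and before 14.0% of all 32851 start sites. The share among the 13 was thus near that over all start sites, and the matches do not set the 9 genes apart. Some start sites, that of Ibsp among them, lie inside the annotated gene, so bases searched there are partly within it. The Spp1 and Dmp1 sequences are shown because they place the match in the 2 genes of the chromosome 5 cluster that hold it. In both the match reads ACCACA on the gene's strand, and it is in capitals. The Spp1 sequence is chr5:104434861-104435110 on the plus strand, and its match ends 122 bases before the RefSeq start site. The Dmp1 sequence is chr5:104202367-104202612 on the plus strand, and its match ends 158 bases before the start site.
Spp1: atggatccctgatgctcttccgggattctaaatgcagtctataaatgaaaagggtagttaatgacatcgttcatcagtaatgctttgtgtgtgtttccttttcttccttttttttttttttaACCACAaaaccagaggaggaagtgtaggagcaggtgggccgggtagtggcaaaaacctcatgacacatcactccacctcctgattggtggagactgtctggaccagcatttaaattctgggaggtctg
Dmp1: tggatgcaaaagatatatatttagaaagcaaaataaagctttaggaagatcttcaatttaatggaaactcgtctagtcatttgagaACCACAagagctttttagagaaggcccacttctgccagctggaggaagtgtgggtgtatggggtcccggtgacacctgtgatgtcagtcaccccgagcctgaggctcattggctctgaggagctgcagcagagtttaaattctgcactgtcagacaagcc
A match is a description of the letters, and binding was not measured.

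Omd encodes osteomodulin, a small leucine-rich proteoglycan of mineralized matrix, and Ifitm5 encodes BRIL, a membrane protein of osteoblasts in which a recurrent mutation causes a form of brittle bone disease. Omd (ENSMUSG00000048368, chromosome 13, 49582462 to 49592822, plus strand) had no reads in either library, which allows an FPKM of up to 1.54 under BMT and 5.51 under aGVHD_V. It lies within Cenpp, a centromere gene on the opposite strand. Beside it in the same cluster, Ogn (osteoglycin) was at FPKM 10.3 against 1.43 (fold interval from 1.08), Aspn (asporin) 4.69 against 5.10, and Ecm2 1.19 against no reads. Of the 9 relatives examined, 8 were measured and 6 of these were called lower, with Bgn (biglycan) at 50.02 against 3.28 and Dcn (decorin) at 21.9 against 1.49. Prelp had 11.6 against 1.505 (fold interval from 1.55) and Lum (lumican) 8.29 against 0.69, with an interval from 0.970 that included no difference. Aspn was called in neither direction, and neither was Fmod (fibromodulin), at 0.40 against 1.48 with both values under the floor. Fmod was called higher with a pseudocount of 0.1.

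Ifitm5 (ENSMUSG00000025489, chromosome 7, 140948958 to 140950291, minus strand) was at FPKM 1.19 on 11 reads under BMT and no reads under aGVHD_V. Both values are under the floor, so no fold is given although the gene passed the 2-fold call. It overlaps Gm45717 on the same strand, which had no reads in either library. Its relatives beside it on the chromosome, which restrict viruses and respond to interferon, were within 2-fold under all scalings run. Ifitm3 was at FPKM 257 under BMT and 252 under aGVHD_V, Ifitm6 188 and 218, Ifitm2 85.2 and 115, and Ifitm1 30.3 and 22.9.

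Pth1r encodes the receptor of parathyroid hormone and of parathyroid hormone-related protein, through which osteoblasts receive calcium-regulating signals. The gene (ENSMUSG00000032492, chromosome 9, 110722085 to 110747145, minus strand) overlaps Myl3 on the opposite strand, which had no reads in either library. Pth1r was at FPKM 4.57 on 162 reads under BMT and 1.60 on 50 reads under aGVHD_V. It was 2.85-fold lower, and the widened interval of 0.454 to 84.1 included no difference. The difference of -1.10 on the log2(FPKM + 1) scale was the smallest among the 7 measured genes and close to the 2-fold threshold. Pth2r, its relative, and Pthlh, one of its ligands, had no reads in either library.

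**Figure D3:**
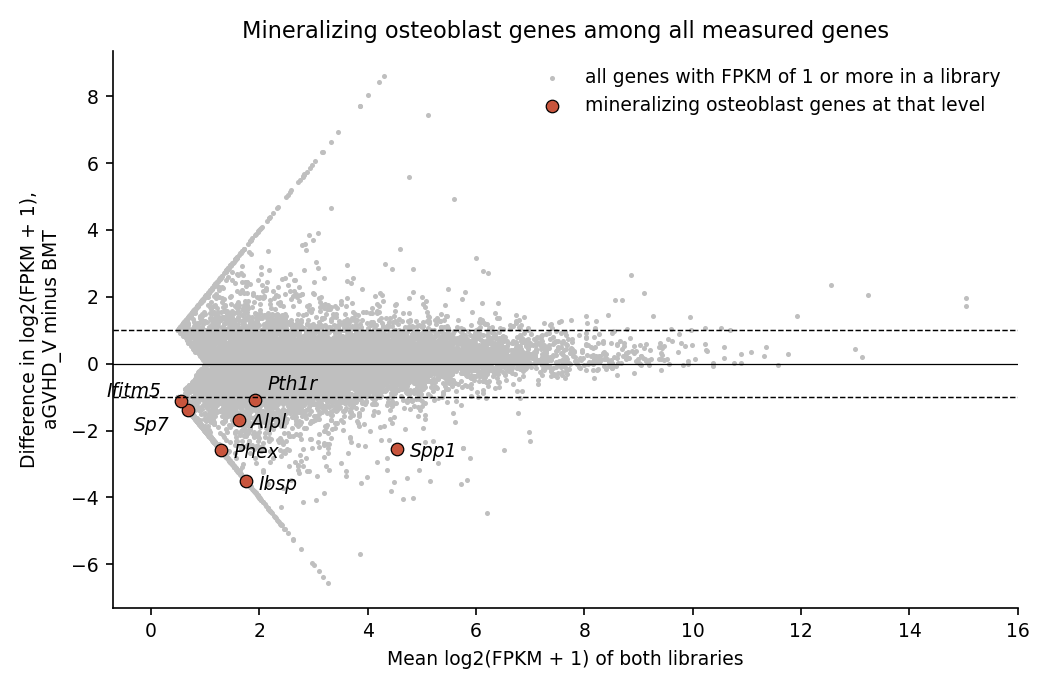
Difference in log2(FPKM + 1), aGVHD_V minus BMT, against the mean log2(FPKM + 1) of both libraries, for 12942 measured genes in grey and the 7 measured mineralizing osteoblast genes in red, with dashed lines at 2-fold. All 7 lie below the lower line, and those without aGVHD_V reads lie on the lower edge of the cloud, where the difference is set by the BMT level alone.

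Other genes of bone mineralization were read by role. Of 35 such genes, 21 were measured, 9 were called lower, 1 higher and 11 within 2-fold, with a median difference of -0.86. The shares over all measured genes were 19.4% lower and 8.65% higher. Of 10 matrix genes 5 had no reads in either library, 5 were measured and 4 were called lower: Col1a2 (FPKM 33.9 against 1.39) and Col1a1 (23.2 against 2.47), the chains of type I collagen, Sparc, osteonectin (109.9 against 13.05), and Mgp, the matrix Gla protein that inhibits calcification (41.2 against 7.59). The widened intervals of these folds began at 9.64, 3.55, 4.76 and 1.48. Bmp1, the procollagen C-proteinase, had 3.98 against 2.79.

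The measured genes that handle phosphate and pyrophosphate lay on both sides of 0. Of 7 such genes 5 were measured, 1 was called lower and 4 lay within 2-fold, with a median difference of 0.12. The median was -0.09 with each library at an equal FPKM sum of 1000000 and -0.02 with library sizes of all recovered reads, so its sign depends on the scaling. Slc20a2, a phosphate carrier, was at FPKM 4.58 against 1.31 (fold interval 0.863 to 30.9). Slc20a1, the related carrier, had 23.1 against 24.8, and Enpp1, which makes pyrophosphate, 1.36 against 1.56. Ank, a pyrophosphate exporter, had 11.9 against 19.4, a difference of 0.66 on the log2(FPKM + 1) scale, and Phospho1, the phosphatase of matrix vesicles, 2.15 against 4.16, a difference of 0.71. These genes are also expressed outside bone, and their cells of origin were not resolved here.

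Among the transcription factors, Runx2, the master regulator of osteoblasts, was at FPKM 4.55 against 0.92, 4.93-fold lower (interval 1.26 to 43.1). Mef2c had 1.41 against 0.33 and lay within 2-fold on the log2(FPKM + 1) scale. Atf4, a stress-responsive factor that is active in many cells, had 176.9 against 210.3. The homeobox genes Dlx5 and Dlx6 had few reads under BMT and none under aGVHD_V, and Dlx3 and Msx2 had none in either.

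Among the signalling genes, 8 of 11 were measured, with 3 called lower and 1 higher. Tnfsf11, which encodes RANKL, the cytokine that drives osteoclast formation, was at FPKM 6.67 under BMT and no reads under aGVHD_V. It was 1.21-fold lower against the floor of 5.54, which lay inside its BMT interval of 3.55 to 11.4. The decoy receptor of RANKL, Tnfrsf11b (osteoprotegerin), had 0.99 against 1.498, both under the floor. Fgf23, the phosphate-lowering hormone of osteocytes, had 16.05 against 1.91 (fold interval from 1.22), and Vdr, the vitamin D receptor, 1.46 against no reads. Of the genes for osteopontin receptors, Cd44 had 23.7 against 20.7. Itgav had 3.09 against 1.21, a 2.55-fold ratio (interval 0.808 to 12.4) that the log2(FPKM + 1) scale put within 2-fold, and 3 of the alternative settings called it lower. Itgb3, the partner of Itgav that is also a platelet and osteoclast integrin, was called higher at 3.34 against 8.55 (2.56-fold, interval 1.12 to 5.66), a call that 4 of the alternative settings ended.

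**Figure D4:**
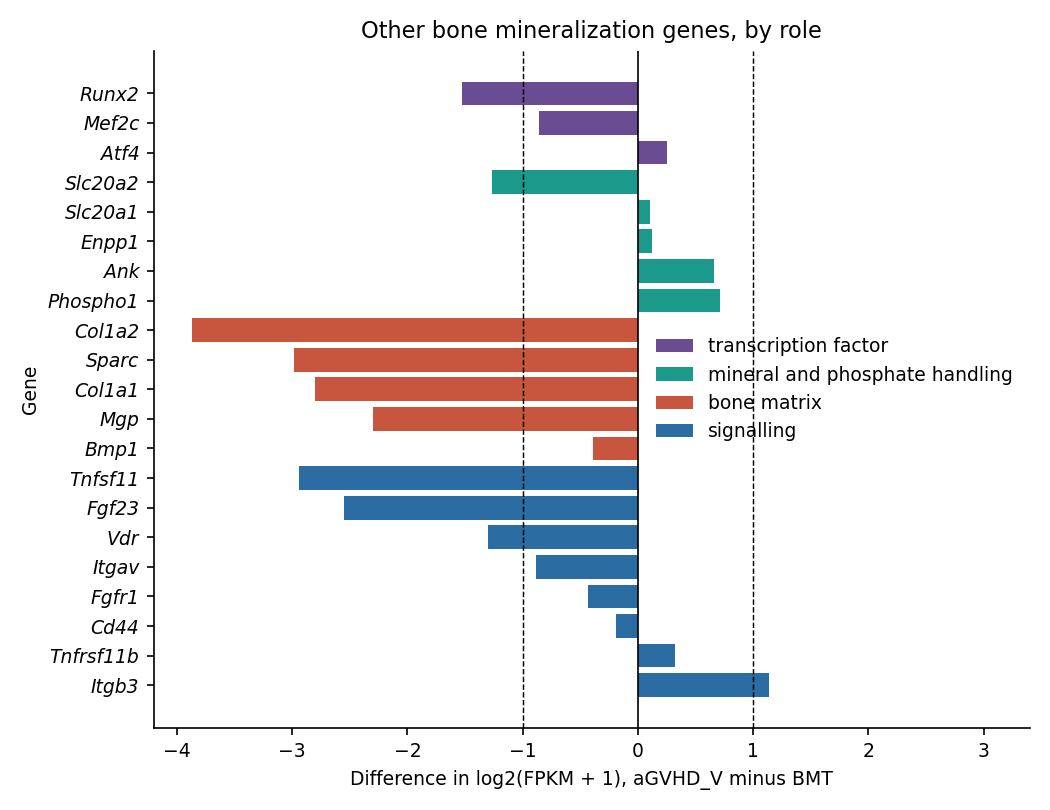
Difference in log2(FPKM + 1), aGVHD_V minus BMT, of the 21 measured genes of bone mineralization outside the 9, as bars coloured by role, with dashed lines at 2-fold. Matrix genes reach -3.87, whereas 4 of the 5 measured genes of phosphate and pyrophosphate handling lie above 0, at 0.10 to 0.71, though the median of that group is below 0 under 2 of the scalings.

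The identity of the bone cells in these libraries is only partly marked. Bglap and Bglap2, which encode osteocalcin, the abundant late product of mineralizing osteoblasts, had no reads in either library, and neither did Bglap3, Omd, Mepe or the osteocyte gene Sost. Bglap and Bglap2 are short, with floors of FPKM 5.60 and 7.35 under BMT and 20.03 and 26.3 under aGVHD_V. Levels like those of Phex, Pth1r or Alpl under BMT lie under these floors. The 3 Bglap genes are near-identical copies, so reads that fit several of them may have been lost in the authors' counting. Of 7 osteoblast markers, which share Sp7 and Ibsp with the 9 genes, 5 were measured and all 5 were called lower, against 19.4% of all measured genes. Sp7, Ibsp and Runx2 were measured through BMT alone and so had to be lower, which makes this count a description only. With genes without reads at their floor, 3 were called lower. The label of mineralizing cells thus rests on genes such as Runx2, Col1a1, Ibsp and Phex under BMT.

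Several of the 9 genes are also expressed by other cells, Spp1 by macrophages and osteoclasts and Alpl by reticular stroma and neutrophils. The markers of these cells differed in direction. All 6 markers of CXCL12-abundant reticular stroma were called lower, against 19.4% of all measured genes. Their summed FPKM was 509.8 under BMT and 22.05 under aGVHD_V. They took 0.379% and 0.0133% of the reads. Cxcl12 was at 346 and 14.6 and Lepr at 29.5 and 0. Of 8 macrophage markers 2 were called lower and 6 lay within 2-fold, with sums of 212.3 and 167, although 6 were called lower with each library at an equal FPKM sum. Of 8 osteoclast markers 4 had no reads in either library (Calcr, Dcstamp, Ocstamp and Oscar), and sums were 116 and 153. Most of these sums was Mmp9, a gelatinase that neutrophils also make, at 82.2 and 97.2, and without it they were 34.2 and 55.4. Acp5 was called higher under aGVHD_V (20.1 against 55.4), though not with each library at an equal FPKM sum, and Ctsk had 13.7 against no reads. The 8 neutrophil markers were all within 2-fold and took 1.38% and 1.49% of the reads. Among them Camp, at 1170 and 2335, lay at the threshold and was called higher with upper-quartile scaling. Of 8 chondrocyte markers 5 had no reads in either library and 3 had reads under BMT alone, with sums of 4.99 and 0. Of 6 endothelial markers 5 were called lower (sums of 40.6 and 4.73), as were all 4 measured of 5 B cell markers (58.2 and 1.505), with Cd79b at 23.0 and 0 and Cd79a at 22.2 and 0.19. Many of these markers were measured through BMT alone and so had to be lower. They were Lepr, Ebf3 and Foxc1 of the stroma, endothelial Cldn5, Cdh5, Kdr and Tie1, and Cd79b, Cd79a and Pax5 of B cells. The counts for these 3 cell types are thus descriptions only. The 5 erythroid markers took 3.37% and 10.1% of the reads, with Hbb-bs at 18547 and 61502. The part of these cells in the values of the 9 genes was not tested.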

How the data were processed

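RNA sequencing of marrow cells sorted by depletion gave 1 library per group, assigned by sample title. The series is titled as single-cell, but the values were treated as bulk. The authors deposited FPKM, per the file headers, with gene lengths. edgeR 3.18.1 and the builds GRCm38 and mm10 appear in the submitters' processing notes. Aligner, counter and use of strand are not stated by the sources. The table has 1 more column of sample values that fits no label, and it was left out. FPKM multiplied by gene length were whole multiples of 1 step per library (100% of values above 0, tolerance 0.05), which gave the reads. The steps correspond to library sizes of 12127105 (BMT) and 10661688 (aGVHD_V), so the authors had scaled them. The modal read number is the peak of a moving window of 7 values, leaving out reads under 4. Ratios have exact conditional binomial (Clopper-Pearson) intervals and single values exact Poisson intervals, on reads divided by the modal number. All code was run with Python 3.11.15, numpy 2.4.6 and scipy 1.17.1 and was tested on simulated data. For a symbol on several rows, the one with most reads was kept. 1 gene of the lists is not reported here. The 9 genes and the lists were chosen with earlier results of these data known. All 9 genes are named. By rule, each list (other mineralization genes, relatives, neighbours and markers) names up to 4 measured genes with the largest absolute difference, its highest gene and, for relatives and neighbours, any with an FPKM of 5 or more. Others named here (for example genes at 0) were chosen after their values were seen. 11 alternative settings were run.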

Additional observations from a re-analysis of the deposited data

How the results depend on the processing

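No gene with reads among the 9 changed sign under the 11 alternatives, and none was called higher. For Sp7, Phex, Ibsp, Dmp1 and Ifitm5 this was fixed in advance. They had no reads under aGVHD_V, so no setting could raise their differences above 0. Only Spp1, Alpl and Pth1r could have changed sign. Of 88 recomputed differences 85 were below 0, and the other 3 (Sp7, Dmp1 and Ifitm5) became 0 by construction when genes without reads were set to their floor, capped at the level of the other library. The count of genes called lower was 7, and became 2 with a pseudocount of 5, 2 with an FPKM minimum of 5 (only 2 genes measured) and 4 with genes without reads at their floor. Their median difference of -1.68 became -3.68 with a pseudocount of 0.1, -0.73 with a pseudocount of 5 and -1.01 at the floor. Of the other mineralization genes, 9 were called lower, 14 with an equal FPKM sum of 1000000 and 6 with a pseudocount of 5 or an FPKM minimum of 5. Their median difference of -0.86 became -0.27 with a pseudocount of 5, -0.39 at the floor, -1.35 with the equal sum and -2.30 with an FPKM minimum of 5. The 1 called higher (Itgb3) became 0 with a pseudocount of 5, with an equal FPKM sum of 1000000, with scaling that leaves out hemoglobin, mitochondrial and ribosomal protein transcripts and with library sizes of all recovered reads. The cause of these shifts was not tested beyond the construction of each setting. The share of all genes called lower, 19.4%, ran from 3.89% (pseudocount of 5) to 38.4% (equal FPKM sum), which moved the median gene to -0.69. No paired analysis was possible because each group has 1 library, and no replicate could be left out.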

Other observations

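The shares called lower and higher among the genes beside the 9 on their chromosomes were near or below those over all measured genes, and the differences between these shares were not tested. Of 79 protein-coding genes that start within 200 kb of one of the 9 and are not among them, 45 were measured, 7 (15.6%) were called lower and 2 (4.44%) higher, against 19.4% and 8.65% over all measured genes, with a median difference of -0.11 against -0.07. The lower neighbours were Rarg, Mfsd5 and Sms, with Pkd2, Ece1, Ecm2 and Ogn as given above. Rarg, a retinoic acid receptor beside Sp7, had an FPKM of 4.92 against no reads, 1.69-fold lower against the floor. Mfsd5 had 20.6 against 9.09 and Sms, spermine synthase beside Phex, 6.45 against 2.03. The widened intervals of Mfsd5 (0.792 to 9.11) and Sms (0.991 to 16.5) included no difference. The higher neighbours were Psmd13, a proteasome subunit beside Ifitm5 (30.4 against 62.7, interval of the fold BMT over aGVHD_V 0.339 to 0.696), and BC005561 beside Spp1 (1.54 against 4.42, interval 0.101 to 1.27). The call of Psmd13 ended under 5 of the alternative settings, where its difference fell to between 0.46 and 0.998, and that of BC005561 under 4. Rarg, Mfsd5, Sms, Pkd2, Ecm2 and BC005561 were named because they passed the 2-fold call.

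The other neighbours with an FPKM of 5 or more were called in neither direction. Near Sp7 the highest were Prr13 (65.1 under BMT and 94.7 under aGVHD_V), Pfdn5, a prefoldin subunit (55.1 and 99.04), and Pcbp2, an RNA-binding protein (48.3 and 37.6). Aaas had 25.3 and 20.6, Itgb7, an integrin of lymphocytes, 19.8 and 37.4, and Zfp740 19.2 and 16.8. Lower levels near Sp7 were those of Myg1 (15.2 and 16.4), Espl1, which encodes separase (15.2 and 19.9), and Tarbp2 (8.30 and 12.9). Near Alpl, Eif4g3 had 9.77 and 6.31. Near Dmp1, Nudt9 had 40.1 and 36.3 and Hsd17b11 12.8 and 11.8. Near Omd, Iars had 21.02 and 26.8, Cenpp 9.65 and 8.38 and Nol8 5.27 and 6.02. Near Ifitm5, Ptdss2 had 24.1 and 33.5, Ric8a 7.003 and 5.16 and Pgghg 3.67 and 5.47. Near Pth1r, Ccdc12 had 14.8 and 13.5, Prss50 7.87 and 4.25 and Nbeal2 6.21 and 5.26. Sparcl1, Sp1, Aspn and the Ifitm genes are given above.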
